A study of Mus musculus with 16 samples.

Results

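The response to dexamethasone was compared between 2 organs of newborn mice, gene by gene. For each gene the effect of dexamethasone in whole cerebellum was subtracted from its effect in whole lung, so that a positive difference means a higher effect in lung. All 16 arrays of the series entered the comparison, 8 from lung and 8 from cerebellum, and 18193 genes were tested. Every mouse was of strain C57BL/6J, and every organ was taken at postnatal day 7. Both organs had an arm given vehicle and an arm given dexamethasone, with 4 biological replicates in each of the 4 groups. The vehicle lungs were arrays B12, B14, B19 and B22, and the dexamethasone lungs B28, B31, B40 and B46. The vehicle cerebella were B78, B79, B80 and B81, and the dexamethasone cerebella B39, B49, B50 and B52. Values are given in these orders throughout. The title calls the treatment chronic, and neither its dose nor its schedule is stated in the labels. Within each organ the replicate numbers of treated and vehicle mice lie in separate ranges. The vehicle numbers are the lower in lung and the higher in cerebellum. The labels do not say what the numbers stand for. Anything that follows them would run in opposite senses in the 2 organs, and it cannot be told apart from the treatment.

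Dexamethasone is a synthetic glucocorticoid. It enters cells and binds the glucocorticoid receptor, which then moves to the nucleus and binds DNA at glucocorticoid response elements, and genes near such sites can be raised or lowered. In lung, glucocorticoids are known for maturing the alveolar epithelium and thinning the walls between air spaces. In the cerebellum of the newborn, granule neuron progenitors divide under Sonic hedgehog, and glucocorticoids are known to oppose that division. Glucocorticoids are also known for acting on white blood cells, which they can mobilise, retain or kill depending on the type.

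The tissue labels held. The surfactant gene Sftpc lay between 14.57 and 14.74 on the log2 scale in every lung and between 5.03 and 6.03 in every cerebellum, and the granule neuron gene Zic1 lay between 13.02 and 13.41 in every cerebellum and between 3.69 and 4.80 in every lung. Arrays of the same tissue correlated at 0.946 to 0.996 and arrays of different tissues at 0.749 to 0.830. Array B46 stood lowest among the dexamethasone lungs in its mean correlation with its group, at 0.980. The array's Gapdh control, the 3' minus the 5' log2 signal, is lower for more intact RNA and was 0.446 to 0.708 in dexamethasone lungs and 0.840 to 1.04 in vehicle lungs. It was 0.0490 to 0.178 in dexamethasone cerebella and 0.0440 to 0.518 in vehicle cerebella, where B81 was the highest. This measure of RNA quality moved with treatment in lung, and its part in the results was not tested beyond a fit that takes it as a covariate, in which 2009 genes had a called difference.

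The effect of dexamethasone differed between the organs for 3879 genes, 21.3% of those tested, at an adjusted p under 0.05 (limma with Benjamini-Hochberg adjustment over 18193 genes). The difference was above 0 for 1792 genes (9.85%) and below 0 for 2087 (11.5%). A total of 5906 genes had an unadjusted p under 0.05, and 1355 called genes differed by at least 2-fold. More genes were called in lung than in cerebellum. In lung 5679 genes were called (31.2%), 2860 higher (15.7%) and 2819 lower (15.5%). In cerebellum 874 were called (4.8%), 516 higher (2.84%) and 358 lower (1.97%).

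A called difference can arise in several ways, and the genes were separated by them. Of the 357 genes called in both organs, 204 moved the same way and 153 moved in opposite directions. All 153 of the latter had a called difference, and so did 29 of the former. The largest class, 2314 genes, was called in lung and not in cerebellum although the gene was expressed in cerebellum, here meaning that at least 1 of its group means there reached the median of all values, 5.93. Another 726 were called in lung and were quiet in cerebellum, below that level in both groups. Of these, 179 were quiet in lung too. The mirror classes were small. The cerebellar effect alone was called for 284 genes expressed in lung and for 49 quiet in lung, of which 12 were quiet in cerebellum too. A further 324 genes had a called difference and a called effect in neither organ. Of the 10789 genes expressed in both organs 3016 had a called difference (28%), and of the 5155 quiet in both 214 had one.

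**Figure D1:**
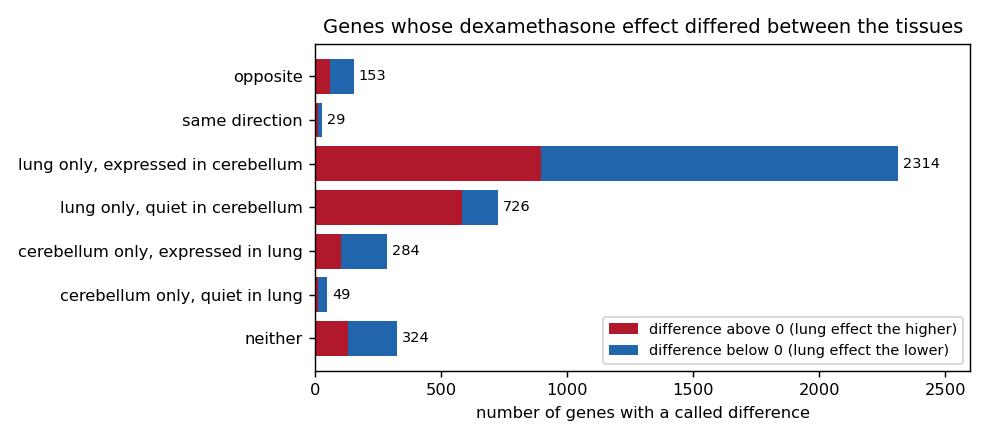
Number of genes with a called difference in each class (horizontal axis, from 0), split into differences above 0 (red) and below 0 (blue). The class called in lung and expressed in cerebellum holds 2314 of the 3879 genes, and the opposite class 153.

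The bare absence of a call in cerebellum does not show that a gene did not respond there. For 1731 of the 2314 genes, 74.8%, the 95% interval of the cerebellar effect lay within 1.5-fold in either direction, so that the data bound the response. The other genes of this class have wider intervals. Conversely, 2282 genes were called in lung, were not called in cerebellum and had no called difference, so that for these a call in a single organ shows no difference between organs. The line between quiet and expressed was also not sharp. Within 0.5 of it lay 177 of the lung genes on the quiet side in cerebellum and 151 on the expressed side.

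**Figure D2:**
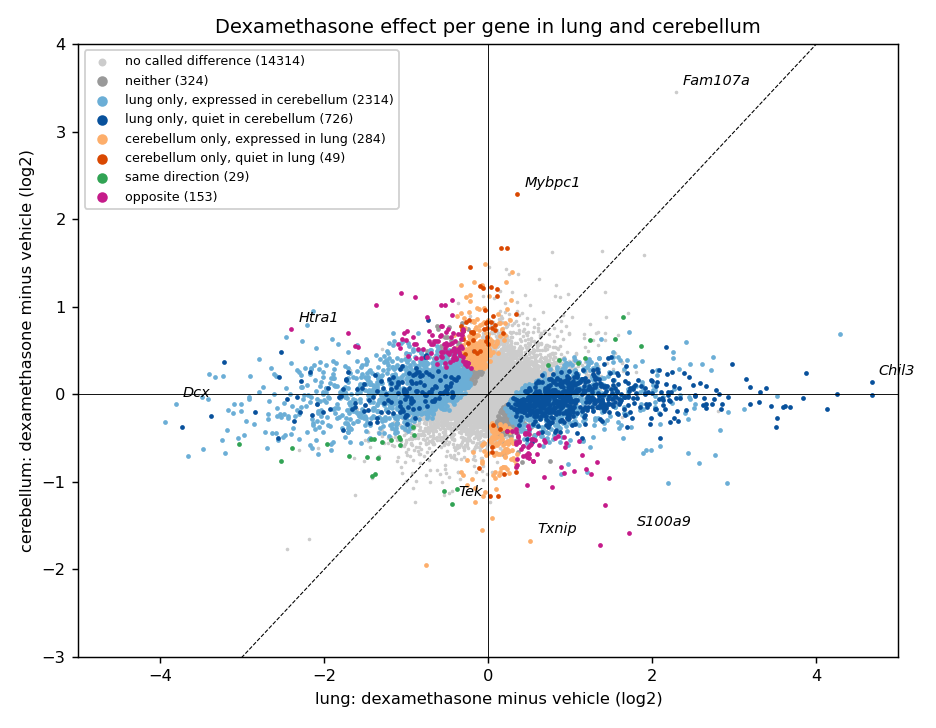
Effect of dexamethasone on each of 18193 genes, on the log2 scale, in lung (horizontal axis) and cerebellum (vertical axis), coloured by class; the dashed line marks equal effects. The cloud spreads wider along the lung axis, and the 153 genes of the opposite class (magenta) lie where the signs of the effects are opposed.

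Of the 153 genes that moved in opposite directions, 143 were expressed in both organs. The other 10 were quiet in 1 organ, 2 in cerebellum and 8 in lung. Both effects were at least 2-fold for 5 genes. Among the 153, 60 rose in lung and fell in cerebellum, 39.2% of the class. That share was 50.3% with quantile and 56.6% with cyclic loess normalization run again. By the smaller of the 2 effects the first 3 were S100a9, S100a8 and Cd68, followed by Epb41l4b, Lpl, Slc39a8, Plek, Tyrobp, Celsr1 and Mpeg1. S100a8 and S100a9 encode the subunits of calprotectin, the most abundant protein of the neutrophil cytosol. Cd68 is a lysosomal glycoprotein of macrophages, Tyrobp an adaptor of activating receptors on myeloid cells, Plek a platelet and leukocyte kinase substrate, and Mpeg1 a pore-forming protein of macrophages.

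S100a9 read 12.20, 11.96, 12.20 and 12.41 in vehicle lungs and 14.11, 13.56, 14.01 and 13.96 in dexamethasone lungs. In vehicle cerebella it read 7.95, 8.29, 6.71 and 7.05, and in dexamethasone cerebella 7.44, 5.75, 5.54 and 4.91. Every treated lung lay above every vehicle lung, while in cerebellum B39 lay among the vehicle values and the other 3 below them. The rise in lung was 3.29-fold (log2 1.72, SE 0.41, adjusted p 0.0044) and the fall in cerebellum 3.0-fold (log2 -1.59, SE 0.41, adjusted p 0.036), which gave a difference of 3.30 (SE 0.59, adjusted p 0.00075). S100a8 rose 2.57-fold in lung (adjusted p 0.027) and fell 3.29-fold in cerebellum (adjusted p 0.034). In whole organs, fewer cells of a type and less RNA per cell cannot be told apart.

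Cd68 read 7.55, 7.27, 7.08 and 7.71 in vehicle lungs and 8.68, 8.05, 8.50 and 10.06 in dexamethasone lungs. It read 6.79, 7.39, 6.95 and 6.51 in vehicle cerebella and 5.45, 5.81, 5.73 and 5.57 in dexamethasone cerebella. The groups did not overlap in either organ, and B46 was the highest lung. Cd68 rose 2.68-fold in lung (log2 1.42, SE 0.31, adjusted p 0.0021) and fell 2.41-fold in cerebellum (log2 -1.27, SE 0.31, adjusted p 0.025). Without B46 its difference was 2.28 in place of 2.69, with an adjusted p of 2.6e-05.

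Tyrobp read 10.56, 10.49, 10.41 and 10.69 in vehicle lungs and 11.96, 11.30, 11.69 and 11.99 in dexamethasone lungs. The cerebella read 8.94, 9.19, 8.82 and 8.79 with vehicle and 7.96, 8.07, 8.16 and 8.09 with dexamethasone. Neither organ's groups overlapped, and the spread within each group was small beside the shift. The difference was 2.06 (SE 0.19, adjusted p 3.6e-06). Plek (log2 1.04 in lung, -0.88 in cerebellum) and Mpeg1 (0.78 and -1.07) had the same form, and both kept both calls without any single array.

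Lgals3, Icam1 and Lyz2 were lower-ranked members, the first 2 named after their values were seen. Lgals3, the lectin galectin-3 of macrophages and epithelium, rose 2.49-fold in lung and fell 1.70-fold in cerebellum, with a difference of 2.09 (SE 0.17, adjusted p 1.1e-06). Icam1, the adhesion molecule by which leukocytes leave vessels, rose 2.21-fold in lung and fell 1.62-fold in cerebellum, where its group means lay under the quiet level. The lysozyme gene Lyz2, on the macrophage list, rose 1.33-fold in lung and fell 1.51-fold in cerebellum, and held both calls in 4 of 16 fits that left out an array.

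Across the list of 18 macrophage and microglia markers, 9 had a difference above 0 and none below, against 9.85% and 11.5% of all genes. The median effect of the list was 0.62 in lung and -0.25 in cerebellum, against 0.05 and 0.01 over all genes. The markers did not move as a block. Chil3, a chitinase-like protein of alveolar macrophages, and the scavenger receptor Marco rose 25.5-fold and 9.12-fold in lung and were quiet in cerebellum. Csf1r, the growth factor receptor of macrophages and microglia, had effects of 0.25 in lung (adjusted p 0.26) and -0.18 in cerebellum (adjusted p 0.68). Cx3cr1, the fractalkine receptor, fell 2.56-fold in lung (adjusted p 0.0061) and had an effect of -0.21 in cerebellum (adjusted p 0.87). Csf1r and Cx3cr1 were chosen after their values were seen.

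All 15 measured neutrophil markers had a difference above 0, against 9.85% of all genes. All 15 rose in lung, against 15.7% of all genes. In cerebellum 2 of them, S100a8 and S100a9, fell, against 1.97%. The list's summed signal, added on the linear scale, was 12850 to 19470 in vehicle lungs and 43660 to 69040 in dexamethasone lungs, and 988 to 1568 and 683 to 1084 in vehicle and dexamethasone cerebella. The secretory granule genes Ltf and Ngp rose 6.78-fold and 5.91-fold in lung. In cerebellum their effects were -0.69 (adjusted p 0.09) and -0.78 (adjusted p 0.096). Of 9 erythroid markers, 4 (44.4%) had a difference above 0 (2 without B39, B80, B28, B31 or B12). Their summed signal was 4368 to 8382 in vehicle lungs and 8842 to 14210 in dexamethasone lungs, and 380 to 507 and 374 to 491 in cerebellum. Its part in the neutrophil result was not tested.

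Lpl, the lipase that frees fatty acids from circulating lipoproteins, read 11.19, 11.03, 11.16 and 11.05 in vehicle lungs and 12.19, 12.04, 12.03 and 13.18 in dexamethasone lungs. Its cerebellar values were 9.05, 9.23, 9.03 and 8.80 with vehicle and 7.61, 8.20, 8.27 and 8.38 with dexamethasone. Treated and vehicle arrays were apart in both organs, and B46 was again the highest lung. Lpl rose 2.38-fold and fell 1.89-fold, with a difference of 2.17 (SE 0.30, adjusted p 0.00011) that was 1.89 without B46. Plin2, which coats lipid droplets, rose 1.5-fold in lung and fell 1.60-fold in cerebellum. Slc39a8, a zinc and manganese importer, rose 1.90-fold and fell 1.87-fold. Epb41l4b, a membrane-cytoskeleton protein, rose 2.76-fold and fell 1.94-fold on the probe set that represents it, and its other 2 probe sets had no called difference. Celsr1, a cadherin of planar cell polarity, rose 1.85-fold and fell 1.78-fold. Emp2, a membrane protein that is abundant in alveolar type 1 cells, rose 1.48-fold in lung and fell 1.44-fold in cerebellum.

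In the other orientation 93 genes fell in lung and rose in cerebellum. The leading 10 were Nptx1, Tppp, Exo1, Mtf2, Htra1, Zfp467, Plxdc1, Atad2, Adamts4 and Cep97. Chn2, a GTPase-activating protein of maturing granule neurons, was also in this class, with a 1.63-fold fall in lung and a 1.49-fold rise in cerebellum.

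Mtf2 encodes a subunit that brings the Polycomb repressive complex 2 to DNA. It read 10.41, 10.31, 10.28 and 10.28 in vehicle lungs and 9.63, 9.54, 9.53 and 9.59 in dexamethasone lungs. In cerebellum the values were 10.00, 10.20, 9.96 and 9.96 with vehicle and 10.36, 11.10, 11.01 and 11.19 with dexamethasone. No array overlapped in either organ, and B39 was the lowest of the treated cerebella. The fall in lung was 1.68-fold (adjusted p 0.0005) and the rise in cerebellum 1.84-fold (adjusted p 0.0014). Mtf2 has 6 probe sets, and 4 of them were called in both organs in these opposite directions.

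Htra1, a secreted serine protease that cleaves matrix proteins, had the largest fall in lung among the leading 10. It read 11.86, 12.01, 11.85 and 12.07 in vehicle lungs and 9.68, 9.54, 9.48 and 9.46 in dexamethasone lungs. In vehicle cerebella it read 10.28, 9.62, 10.06 and 10.64, and in dexamethasone cerebella 11.44, 10.57, 10.99 and 10.56. The lung groups were far apart, while in cerebellum B49 and B52 were below the highest vehicle array, B81. The fall in lung was 5.30-fold (adjusted p 1.7e-07) and the rise in cerebellum 1.67-fold (adjusted p 0.04).

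Tppp, a tubulin-binding protein of oligodendrocytes, read 7.39, 7.42, 7.24 and 7.53 in vehicle lungs and 6.25, 6.32, 6.28 and 5.25 in dexamethasone lungs. It read 8.31, 7.22, 7.86 and 8.05 in vehicle cerebella and 9.36, 8.61, 8.89 and 8.64 in dexamethasone cerebella. Treated and vehicle arrays were apart in both organs. Tppp fell 2.59-fold in lung and rose 2.02-fold in cerebellum, with a difference of -2.39 (SE 0.35, adjusted p 0.00015). Nptx1, a pentraxin of excitatory synapses, fell 2.09-fold in lung, where its means were under the quiet level, and rose 2.23-fold in cerebellum. Cnp, an enzyme of myelin membranes, fell 1.27-fold in lung and rose 1.36-fold in cerebellum, and held both calls in 1 of 16 fits that left out an array. Of 21 oligodendrocyte and myelin markers, Cnp among them, 3 rose and 2 fell in lung, against 15.7% and 15.5% of all genes. In cerebellum 5 rose, against 2.84%. These markers had a difference above 0 for 2 and below 0 for 3, 23.8% called against 21.3% of all genes. Their summed signal in vehicle cerebella was lowest in B79, at 24388 against 34384 to 40735 in the other 3, and its part in these results was not tested.

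Atad2, a chromatin ATPase that rises with proliferation, read 9.97, 9.62, 10.03 and 9.73 in vehicle lungs and 8.02, 8.28, 8.34 and 7.85 in dexamethasone lungs. It read 8.22, 8.57, 8.01 and 8.32 in vehicle cerebella and 8.42, 9.24, 8.92 and 9.35 in dexamethasone cerebella. The lungs did not overlap, and in cerebellum B39 lay within the vehicle values. It fell 3.28-fold in lung (adjusted p 2.5e-06) and rose 1.62-fold in cerebellum (adjusted p 0.035). Atad2 has 3 probe sets, and only 1 of them had a called difference and opposed effects. Exo1, a nuclease of mismatch repair, fell 1.85-fold and rose 2.15-fold, and was quiet in lung. Cep97, a protein that caps centrioles, fell 1.60-fold and rose 1.60-fold. Mthfd2, a mitochondrial folate enzyme, fell 1.36-fold in lung (adjusted p 0.027) and rose 2.11-fold in cerebellum (adjusted p 0.0005).

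**Figure D3:**
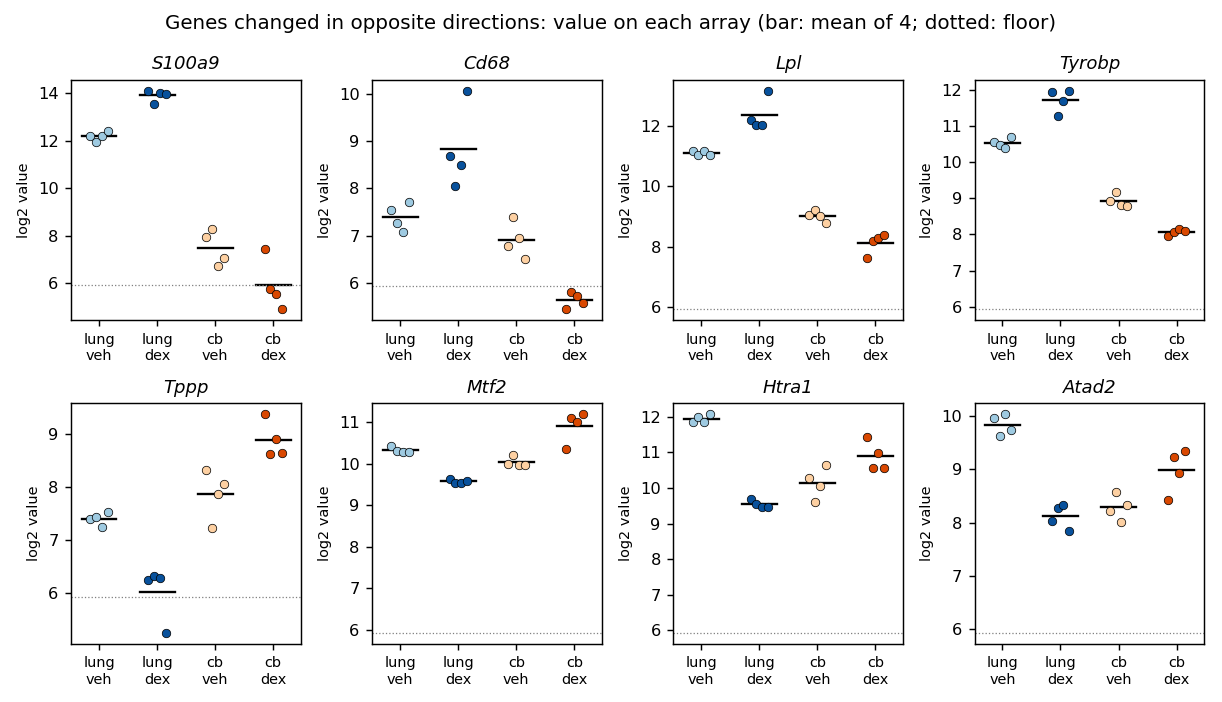
Log2 value on each array for 4 genes that rose in lung and fell in cerebellum (upper panels) and 4 that fell in lung and rose in cerebellum (lower panels); dots are arrays, bars the means of 4, the dotted line the quiet level of 5.93. Cd68, Lpl, Tyrobp, Tppp and Mtf2 show no overlap of treated and vehicle arrays in either organ.

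Genes named Zfp, which mostly encode zinc finger proteins that bind DNA, were frequent in this orientation. This set of 336 genes was defined by symbol after the values were seen. A difference below 0 was called for 106 of them (31.5%, against 11.5% of all genes) and above 0 for 8. In lung 93 fell and 13 rose, against 15.5% and 15.7% of all genes. In cerebellum 41 rose and 5 fell, against 2.84% and 1.97%. The median effect was -0.16 in lung and 0.13 in cerebellum. The opposite class held 10 of them (2.98% of the set, against 0.511% of all genes), all falling in lung and rising in cerebellum. Zfp467, the most strongly opposed, fell 1.66-fold in lung and rose 1.65-fold in cerebellum. With the Gapdh covariate the count of Zfp genes with a difference below 0 was 59.

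The calls in both organs limit the opposite class. Of the 153 genes, 56 stayed in it whichever array was left out, 27 that rose in lung and 29 that fell. The class held 87 genes without B50, 98 without B79 and 100 without B49, and 28 with the Gapdh covariate. The opposed signs changed less, as 144 genes kept them under every alternative in which they were measured and 132 kept a called difference. The genes were chosen by opposed calls on these same arrays, so the kept signs are no independent support. Among the genes described, Cnp held both calls in 1 of 16 fits that left out an array, Lyz2 in 4, Htra1 in 5, S100a8 in 7, Atad2 and Zfp467 in 10, Cd68, S100a9 and Kcnj8 in 11, Tppp, Plxdc1, Adamts4 and Mthfd2 in 12, and Lpl, Plin2 and Icam1 in 13. The class held 110 genes with Xist level, a marker of female mice, as a covariate. Xist was above 9 on the log2 scale in 3 of 4 dexamethasone and 1 of 4 vehicle lungs, and in 2 and 1 of 4 cerebella. The adjusted p of the cerebellar effect reached 0.127 for S100a9 and 0.136 for Htra1 without B79. It reached 0.115 for S100a8 without B50 or B79, and 0.112 for Atad2 without B80. Lung calls were lost as well. The adjusted p of the lung effect reached 0.0682 for S100a8 without B14. For Mthfd2 it reached 0.0922 without B22, while its cerebellar call held in every fit. The other genes of the leading 10 in each orientation held both calls in all 16. Treated and vehicle arrays did not overlap in either organ for 123 of the 153 genes, which were chosen by calls in both, against 909 of all genes (5.0%). Of the 153 genes, 105 have several probe sets, and for 65 of these the difference had the same sign on all. For 57 at least 2 probe sets were called with that sign, and for 6 at least 1 was called with the other sign. Effects were opposed on 1 of 2 probe sets of Nptx1, and 1 of 2 of Plxdc1 had a difference of the other sign.

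The 2314 genes called in lung and expressed in cerebellum comprised 896 rises and 1418 falls in lung. Among rises with a bounded cerebellar effect, the largest differences belonged to Pglyrp1, Reln, Rasd2, Fkbp5, Nr1d1, Adssl1, Cdo1 and Tmem213. Among falls they belonged to Dcx, H2-Ab1, Plcxd3, Ttk, Igfbp2, D430019H16Rik, Prc1 and Cenpe. By the rule their cerebellar effects had intervals within 1.5-fold.

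Fkbp5, a co-chaperone that is a textbook glucocorticoid target and restrains the receptor, shows the pattern. It read 8.07, 7.72, 7.85 and 8.24 in vehicle lungs and 9.93, 9.69, 10.07 and 11.52 in dexamethasone lungs. The cerebellar arrays read 8.97, 9.06, 9.14 and 9.13 with vehicle and 9.05, 9.03, 9.13 and 9.06 with dexamethasone. All treated lungs exceeded all vehicle lungs, and B46 was more than 1 log2 unit above the rest, while the cerebellar groups covered the same range. The rise in lung was 5.03-fold (log2 2.33, SE 0.27, adjusted p 6.4e-06), and the cerebellar effect was -0.01 (adjusted p 1.0). The difference was 2.34 (SE 0.38, adjusted p 0.00039), and 1.93 without B46.

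Of the 30 genes listed as glucocorticoid-induced, 21 rose in lung and none fell, against 15.7% and 15.5% of all genes. In cerebellum 2 rose and 1 fell, against 2.84% and 1.97%. A difference above 0 was called for 13, against 9.85% of all genes, and none had a called difference below 0. The list's median effect was 1.14 in lung and 0.08 in cerebellum. Zbtb16, a zinc finger repressor, rose 5.29-fold in lung and had an effect of -0.21 in cerebellum (adjusted p 0.91). Klf15, a regulator of amino acid use, rose 4.10-fold and had an effect of -0.09 in cerebellum (adjusted p 0.94). Pdk4, the kinase that shuts off pyruvate oxidation, rose 7.54-fold in lung, and its effect in cerebellum was -1.01 (adjusted p 0.35). Cebpd, a transcription factor of acute responses, rose 3.47-fold, the metallothionein Mt2 4.75-fold, the cell cycle inhibitor Cdkn1a 2.63-fold and the receptor inhibitor Errfi1 2.39-fold, and each had a called difference. B46 was the highest lung for Fkbp5, Zbtb16, Klf15, Pdk4, Cebpd and Mt2, and each kept its called difference without it. Per1, a clock gene, had a difference of 1.20 (adjusted p 0.045) that was 1.02 without B46 (adjusted p 0.084) and was not called in 12 of 16 fits that left out an array. Mt1 had a difference of 1.0 (adjusted p 0.039), which was 0.74 without B46 (adjusted p 0.051) and not called in 10 of 16.

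The genes that bring the hormone signal into the cell were compared by the same test. Nr3c1, which encodes the glucocorticoid receptor, read 11.17, 11.24, 11.10 and 11.20 in vehicle lungs and 10.95, 10.86, 10.78 and 10.52 in dexamethasone lungs. In cerebellum it read 9.60, 9.45, 9.37 and 9.34 with vehicle and 9.41, 9.32, 9.23 and 9.39 with dexamethasone. The lung groups were apart and the cerebellar groups overlapped. Nr3c1 fell 1.32-fold in lung (adjusted p 0.0042), had an effect of -0.10 in cerebellum (adjusted p 0.71), and had a difference of -0.30 (95% interval half-width 0.29, adjusted p 0.14). Hsd11b1, the enzyme that regenerates active glucocorticoid from its inert ketone, rose 2.54-fold in lung (adjusted p 4e-07). In cerebellum its effect was 0.41 (adjusted p 0.06), and the difference of 0.94 was called (SE 0.17, adjusted p 0.00086). Hsd11b2, which inactivates the natural hormone, fell 2.03-fold in lung, and its difference of -0.61 was not called (adjusted p 0.12). Nr3c2, the mineralocorticoid receptor gene, had effects of 0.14 and -0.05, neither called.

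Some glucocorticoid targets had no called difference. Fam107a, an actin-binding stress gene, read 4.89, 5.10, 5.46 and 5.41 in vehicle lungs and 7.08, 6.41, 6.46 and 10.04 in dexamethasone lungs. The cerebella read 7.47, 7.34, 6.75 and 8.38 with vehicle and 10.86, 10.51, 11.18 and 11.20 with dexamethasone. It rose in both organs, 4.86-fold in lung and 10.9-fold in cerebellum, with no overlap. The difference was -1.17 (95% interval half-width 1.73, adjusted p 0.36), and without B46, the highest lung, it was -2.02 (adjusted p 0.0019). Klf9, a transcription factor, had a difference of 0.64 (95% interval half-width 0.50, adjusted p 0.062), which was called in 8 of 28 alternatives. Tsc22d3 had a difference of 0.58 (95% interval half-width 0.87, adjusted p 0.36), Dusp1 of 0.32 (0.44, adjusted p 0.31) and Sgk1 of 0.18 (0.43, adjusted p 0.60). The intervals of Tsc22d3, Dusp1 and Sgk1 include differences in either direction.

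The stretches upstream of 4 genes named here are shown because they hold the letters of a glucocorticoid receptor half-site pair and the genes differ in where they were called. The motif searched was GNACA, any 3 bases and TGTNC, which reads the same on both strands, in the 250 bases before each RefSeq start. It was present for 51 of 14368 genes with a promoter sequence (0.355%), for 6 of 1173 genes that rose in lung only (0.512%), for 3 of 1235 that fell in lung only (0.243%), for 2 of 240 called in cerebellum and expressed in lung (0.833%) and for none of 117 in the opposite class. Each stretch of 60 bases is from RefSeq on GRCm38.p6, with the match in capitals.
Sgk1, chr10:21993679-21993738, plus strand: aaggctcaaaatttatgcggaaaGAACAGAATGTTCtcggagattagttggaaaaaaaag
Fam107a, chr14:8309861-8309920, minus strand: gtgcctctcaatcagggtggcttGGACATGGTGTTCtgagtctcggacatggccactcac
Mt1, chr8:94178972-94179031, plus strand: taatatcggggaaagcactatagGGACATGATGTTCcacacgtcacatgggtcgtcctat
Txnip, chr3:96557762-96557821, plus strand: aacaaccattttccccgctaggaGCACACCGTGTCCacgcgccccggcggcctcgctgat
The match of Sgk1 extends to AGAACA, any 3 bases and TGTTCT, found upstream of 2 genes in all. Sgk1 was called in neither organ, Fam107a rose in both, Mt1 rose in lung, and Txnip fell in cerebellum. A match is a description of the letters and shows no binding.

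Cell cycle genes fell in lung, and few were called in cerebellum. Of 34 measured members, 32 fell in lung and 1 in cerebellum, against 15.5% and 1.97% of all genes. None rose in either, and 29 had a difference below 0 (against 11.5% of all genes). The median effect was -2.0 in lung and -0.24 in cerebellum. The summed signal was 26530 to 34080 in vehicle lungs and 8694 to 12950 in dexamethasone lungs. In cerebellum it was 38830 to 51310 with vehicle and 27380 to 42450 with dexamethasone, where the groups overlapped.

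Cenpf, a kinetochore protein of mitosis, read 8.93, 8.74, 9.47 and 8.79 in vehicle lungs and 4.99, 4.97, 5.06 and 5.12 in dexamethasone lungs. Its cerebellar values were 9.58, 9.83, 9.58 and 9.76 with vehicle and 8.92, 9.61, 9.27 and 9.67 with dexamethasone. The treated lungs were all below the quiet level, while in cerebellum the groups overlapped. Cenpf fell 15.4-fold in lung (adjusted p 1.7e-10) and had an effect of -0.32 in cerebellum (adjusted p 0.36). Top2a, the topoisomerase that untangles replicated DNA, fell 7.77-fold in lung with an effect of -0.31 in cerebellum (adjusted p 0.41). The mitotic kinase gene Ttk fell 8.61-fold, the spindle midzone gene Prc1 7.59-fold and the kinesin gene Cenpe 6.71-fold in lung, and the cerebellar intervals of all 3 were within 1.5-fold. Mki67, the usual marker of dividing cells, fell 3.77-fold in lung, and in cerebellum its effect was -0.64 (adjusted p 0.11).

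The hedgehog pathway, which drives the division of granule neuron progenitors, was measured through 18 genes. A difference below 0 was called for 6 and above 0 for 2, 44.4% called against 21.3% of all genes. Gli2, a transcription factor of the pathway, fell 2.83-fold in lung with an effect of -0.35 in cerebellum (adjusted p 0.44). Gli3 fell in both, 2.46-fold and 1.46-fold, and the difference of -0.75 was called (adjusted p 0.014). Ptch1, receptor and target, fell 1.29-fold in lung and had an effect of 0.24 in cerebellum (adjusted p 0.34), with a called difference of -0.61. Gli1, the direct target, had a difference of -0.66 that was not called (adjusted p 0.14). Sfrp1, a secreted Wnt antagonist in the list, rose 3.11-fold in lung with an effect of -0.50 in cerebellum (adjusted p 0.36). Ccnd2 had a called difference of -0.74 (adjusted p 0.02), while Ccnd1 at -0.47 (adjusted p 0.082) and Mycn at -0.66 (adjusted p 0.24) did not. With the Gapdh covariate 1 hedgehog gene had a called difference below 0 and 1 above.

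Dcx, a microtubule protein of migrating neurons, had the largest fall with a bounded cerebellar effect. It read 8.36, 8.17, 8.52 and 8.47 in vehicle lungs and 5.04, 4.33, 4.79 and 4.10 in dexamethasone lungs. In cerebellum the values were 13.22, 13.20, 13.21 and 13.16 with vehicle and 12.97, 13.09, 12.98 and 13.30 with dexamethasone. In lung the arrays fell from above the quiet level to below it, and in cerebellum they stayed near the top of the scale. The fall in lung was 14.1-fold (adjusted p 1.7e-10), and the effect in cerebellum was -0.11 (SE 0.16, adjusted p 0.83). Of 13 progenitor markers of granule neurons, Dcx among them, 3 (23.1%) had a difference below 0, against 11.5% of all genes. All 3 were called in lung only, and none of the 13 was called in cerebellum. In lung 9 of the 13 were quiet. Camk4, a kinase of maturing granule neurons, fell 6.94-fold in lung and had an effect of 0.40 in cerebellum (adjusted p 0.12).

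Igfbp2, a binding protein of insulin-like growth factors, fell 8.09-fold in lung, and Igfbp6, another of the family, rose 6.58-fold there. In cerebellum their effects were -0.11 (adjusted p 0.87) and 0.27 (adjusted p 0.65). In the axis of these factors 5 of 16 genes had a difference above 0 and 4 below, 56.2% called against 21.3% of all genes. Of 14 elastic fibre genes, 6 had a difference below 0 and 2 above, 57.1% called. The microfibril-binding gene Ltbp2 fell 4.71-fold, Fbln2 4.62-fold and Fbn2 4.39-fold in lung, with cerebellar effects of 0.30, 0.10 and -0.33, none called. Reln, a secreted guidance protein of the developing brain, rose 5.49-fold in lung and had an effect of -0.05 in cerebellum (adjusted p 0.94), where it read 12.79, 12.88, 12.93 and 12.81 with vehicle. Only 1 of its 2 probe sets had a difference above 0. Rasd2, a small GTPase, rose 5.46-fold in lung with an effect of -0.03 in cerebellum, and the clock repressor Nr1d1 4.82-fold with an effect of 0.06. Pglyrp1, a bactericidal protein of neutrophil granules, rose 5.75-fold in lung with a cerebellar effect of -0.11 (adjusted p 0.90).

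The 726 genes called in lung and quiet in cerebellum were mostly rises, 582 against 144 falls. Where a gene is quiet, a missing response says little. The largest rises were in Cxcl2, Chil3, Inmt, Bpifa1, Ccl3 and Mmp8, and the largest falls in Shisa3, H2-Aa, H2-Eb1, Prokr2, Tmem26 and P2ry14.

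Chil3 read 8.81, 7.83, 8.67 and 8.53 in vehicle lungs and 13.10, 12.89, 13.14 and 13.40 in dexamethasone lungs. In cerebellum the 8 arrays lay between 4.07 and 4.73. The treated lungs stood far above the vehicle lungs, and the cerebella were all quiet. The rise was 25.5-fold (adjusted p 1.3e-10). Inmt, an N-methyltransferase abundant in lung, rose 17.5-fold, and its cerebellar values lay between 5.05 and 5.52. Bpifa1, a secreted protein of airways, rose 19-fold, and the neutrophil collagenase gene Mmp8 14.3-fold. The chemokine genes Cxcl2 and Ccl3 were uneven. Cxcl2 read 7.85, 5.66, 10.69 and 11.54 in dexamethasone lungs against 4.13, 4.06, 4.55 and 4.29 with vehicle, and Ccl3 4.96 to 11.5 against 4.58 to 4.96. The call of Ccl3 was lost without B40 (difference 3.64, adjusted p 0.054) or B80 (3.78, adjusted p 0.051).

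Genes of class II antigen presentation fell in lung. H2-Aa, which encodes an alpha chain of class II molecules, read 12.32, 12.12, 11.79 and 12.23 in vehicle lungs and 9.38, 9.17, 8.05 and 6.92 in dexamethasone lungs. In cerebellum the arrays lay between 4.81 and 5.85. Every treated lung was lower, and B46 was the lowest. H2-Aa fell 13.3-fold, H2-Eb1 10.4-fold, the invariant chain gene Cd74 4.92-fold and H2-Ab1 10.1-fold. Of 9 measured genes of the list, 7 (77.8%) had a difference below 0, against 11.5% of all genes. H2-Ab1 and H2-DMa reached the quiet level in cerebellum, and the other 5 did not. Only 1 of 2 probe sets of H2-DMa had a difference below 0. The T cell gene Cd3d fell 3.81-fold and the B cell gene Ms4a1 5.50-fold in lung, and both were quiet in cerebellum. A difference below 0 was called for 5 of 16 lymphocyte markers (31.2%), and above 0 for none.

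Among epithelial markers, of 14 alveolar type 1 markers 7 had a difference above 0 and 1, Igfbp2, below, and of 14 type 2 and surfactant genes 5 had one above 0. These were 57.1% and 35.7% of the lists, against 21.3% of all genes. Aqp5, a water channel of type 1 cells, rose 2.21-fold and was quiet in cerebellum. Hopx, a transcriptional cofactor of type 1 cells that is also expressed in cerebellum, rose 1.70-fold in lung and had an effect of -0.22 in cerebellum (adjusted p 0.37). The surfactant protein gene Sftpd rose 2.03-fold, while Sftpc, near the top of the scale, had an effect of 0.04. Cardiac muscle markers moved with treatment too. Of 14, 8 (57.1%) had a difference above 0 (5 without B19), against 9.85% of all genes. Their summed signal was 4605 to 5865 in vehicle lungs and 7877 to 14970 in dexamethasone lungs. Tnnt2, cardiac troponin T, rose 3.98-fold in lung. Cardiac muscle surrounds the large pulmonary veins in mice, and its part in these results was not tested.

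The cerebellum was the only organ with a call for 284 genes expressed in lung, and 256 of these had a lung effect bounded within 1.5-fold. In 101 of them the difference was above 0 and in 183 below. The leading falls were in Txnip, 8430419K02Rik, Clec14a, Scube2, Sft2d3 and Col2a1, and the leading rises in Zfp93, Trmt1l, Thap2, Agt, Pi4kb and Ttc21b.

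Txnip, which inhibits thioredoxin and glucose uptake, read 11.13, 10.80, 10.92 and 10.97 in vehicle cerebella and 10.32, 8.67, 9.22 and 8.92 in dexamethasone cerebella. In lung it read 12.36, 12.29, 11.85 and 12.34 with vehicle and 12.52, 12.56, 12.63 and 13.15 with dexamethasone. The treated cerebella were all lower, with B39 nearest the vehicle arrays, and the treated lungs were all a little higher. It fell 3.19-fold in cerebellum (adjusted p 0.0014) and had an effect of 0.51 in lung (adjusted p 0.16), with a difference of 2.18 (SE 0.37, adjusted p 0.00052). With each probe set fitted on its own, 1 of the 2 of Txnip was called in both organs, in opposite directions. Txnip is counted in the glucocorticoid-induced list, and in cerebellum it moved against that name. Scube2, which helps release hedgehog proteins, fell 3.88-fold in cerebellum (adjusted p 0.00096), and in lung its effect was -0.76 (adjusted p 0.054). Its difference of 1.19 (adjusted p 0.047) was not called in 14 of 16 fits that left out an array, among them that without B28 (1.02, adjusted p 0.093), and was 1.62 without B46 (adjusted p 1.4e-05). Col2a1, the collagen of cartilage, fell 2.25-fold in cerebellum with an effect of -0.06 in lung.

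Agt encodes angiotensinogen, which in brain is made by astrocytes. It read 10.12, 9.86, 10.18 and 10.60 in vehicle cerebella and 11.71, 11.04, 11.54 and 10.98 in dexamethasone cerebella, and 9.93, 10.37, 9.91 and 10.17 against 10.24, 9.71, 9.92 and 9.63 in lung. All treated cerebella were above the vehicle arrays, and the lungs overlapped. The rise in cerebellum was 2.19-fold (adjusted p 0.0024), with an effect of -0.22 in lung (adjusted p 0.43). Trmt1l, a relative of a tRNA methyltransferase, rose 2.43-fold, Thap2, a zinc finger gene, 2.15-fold and Pi4kb, a phosphatidylinositol kinase gene, 2.38-fold. The cilium gene Ttc21b rose 2.09-fold and Zfp93 2.38-fold. The lung effects of these 5 genes lay between -0.34 and -0.08, and none was called. The difference was below 0 on 1 of 2 probe sets of Pi4kb and 2 of 3 of Trmt1l.

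Of 20 endothelial markers, 10 fell in lung and 11 in cerebellum, against 15.5% and 1.97% of all genes. In each organ 1 rose, against 15.7% and 2.84%. The difference was called above 0 for 6 markers and below 0 for 1. A difference was thus called for 35.0% of them, against 21.3% of all genes. The median effect was -0.39 in lung and -0.62 in cerebellum. The summed signal fell from 41960 to 48080 in vehicle lungs to 32300 to 34020 in dexamethasone lungs. In cerebellum it was 7932 to 10060 with vehicle and 4076 to 5213 with dexamethasone.

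Clec14a, a lectin of endothelial cells, read 7.57, 7.96, 7.47 and 7.99 in vehicle cerebella and 6.55, 6.20, 6.20 and 6.37 in dexamethasone cerebella. In lung it read 11.02, 11.05, 10.90 and 10.997 with vehicle and 11.03, 10.76, 10.90 and 11.45 with dexamethasone. The cerebellar groups were apart by almost 1 log2 unit and the lung groups overlapped. It fell 2.66-fold in cerebellum (adjusted p 6.2e-05) and had an effect of 0.04 in lung (adjusted p 0.88). Clec14a has 2 probe sets, and only 1 of them had a difference above 0. Egfl7, a secreted factor of vessels, fell 1.62-fold in cerebellum with an effect of 0.07 in lung, and Esam, an adhesion molecule, 1.58-fold with an effect of -0.19. Tek, the angiopoietin receptor, fell in both, 1.36-fold in lung and 2.38-fold in cerebellum, and Cdh5, the cadherin of endothelial junctions, fell 1.46-fold and 2.16-fold. Both had a called difference, of 0.80 (adjusted p 0.0014) and 0.56 (adjusted p 0.021). Of 16 basement membrane genes 8 fell in lung and 7 in cerebellum, against 15.5% and 1.97% of all genes. None had a called difference, against 21.3% of all genes. Nid1 fell 1.80-fold and 1.52-fold, with a difference of -0.25 (95% interval half-width 0.35).

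Only 49 genes were called in cerebellum and quiet in lung, 10 with a difference above 0 and 39 below. Mybpc1, a myosin-binding protein, rose the most. It read 5.83, 5.95, 5.94 and 6.18 in vehicle cerebella and 8.28, 7.90, 8.25 and 8.61 in dexamethasone cerebella, and between 4.53 and 5.30 in lung. The treated cerebella were all far above the vehicle arrays. The rise was 4.88-fold (adjusted p 3e-07). Ptchd4, a relative of Patched, and Itih3, a hyaluronan-binding protein, each rose 3.17-fold, and Gabra2, a GABA receptor subunit, 2.75-fold. The difference was below 0 on 1 of 2 probe sets of Ptchd4 and 3 of 5 of Gabra2. Gabra6, the GABA receptor subunit of mature granule neurons, rose 2.35-fold (adjusted p 0.0042). Sox1, a transcription factor of neural progenitors and Bergmann glia, read 8.81, 8.68, 8.30 and 9.18 with vehicle and 8.04, 7.83, 7.51 and 7.95 with dexamethasone, without overlap, a 1.88-fold fall. Mro, Mymx and Kifc5b also fell, by 2.24-fold, 1.85-fold and 2.23-fold, from values near the quiet level.

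**Figure D4:**
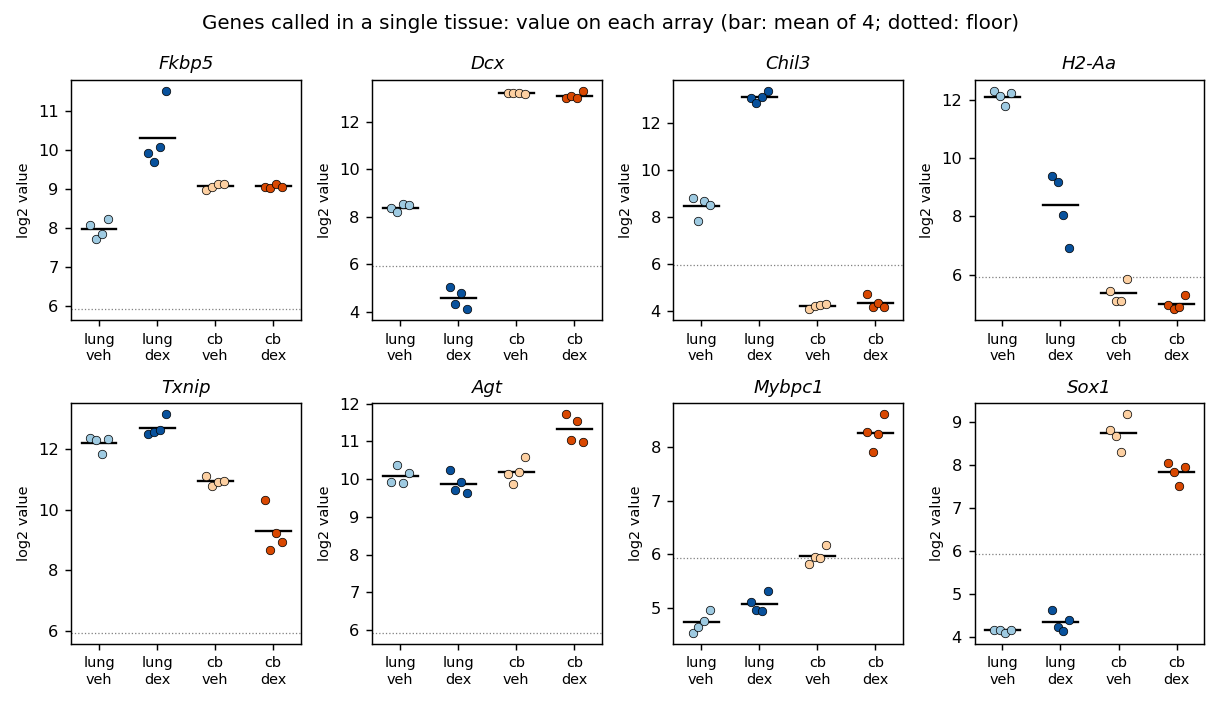
Log2 value on each array for genes called in lung and expressed in cerebellum (Fkbp5, Dcx), called in lung and quiet in cerebellum (Chil3, H2-Aa), called in cerebellum and expressed in lung (Txnip, Agt) and called in cerebellum and quiet in lung (Mybpc1, Sox1). Dots are arrays, bars the means of 4, the dotted line the quiet level of 5.93. Treated and vehicle arrays part in lung for Fkbp5, Dcx, Chil3 and H2-Aa, in cerebellum for Agt, Mybpc1 and Sox1, and in both organs for Txnip, whose lung effect was not called.

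In the class that moved the same way in both organs, 26 of 29 genes changed more in lung and 3, Tek, Zfp81 and Cdh5, more in cerebellum. The largest differences belonged to Racgap1, Thbs2, Cenpa, Pole and Kcnk1. Racgap1, a regulator of cytokinesis, read 8.98, 8.62, 9.13 and 8.91 in vehicle lungs and 5.91, 6.04, 5.85 and 5.68 in dexamethasone lungs. The cerebellar arrays read 9.52, 10.02, 9.84 and 9.95 with vehicle and 8.95, 9.39, 9.12 and 9.62 with dexamethasone. The lungs parted by more than 2 log2 units and the cerebella overlapped slightly. The falls were 8.23-fold (adjusted p 1.4e-09) and 1.48-fold (adjusted p 0.04). The centromere histone gene Cenpa fell 5.77-fold and 1.70-fold, and Pole, the catalytic subunit of a replicative polymerase, 3.91-fold and 1.49-fold. Thbs2, a matrix glycoprotein, fell 5.26-fold and 1.53-fold. Kcnk1, a potassium channel, rose 3.62-fold in lung and 1.47-fold in cerebellum. This class held 13 genes without B49 and 62 without B46. It held 14 genes without B79 or B81, 15 without B50 and 18 without B80.

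Of 15 pericyte and smooth muscle markers 11 fell and 1 rose in lung, against 15.5% and 15.7% of all genes. In cerebellum 5 fell, against 1.97%. A difference below 0 was called for 8 (5 without B49 or B22) and above 0 for 2, 66.7% called against 21.3% of all genes. Pdgfrb, the receptor that defines pericytes, fell 2.54-fold in lung and 1.65-fold in cerebellum, with a called difference of -0.62 (adjusted p 0.0036). Kcnj8, a potassium channel of pericytes, was in the opposite class, with a 1.61-fold rise in lung and a 1.47-fold fall in cerebellum. Of 17 interferon response genes, 5 (29.4%) had a difference above 0 (3 without B79, B12 or B14), against 9.85% of all genes. Ifit3 rose 2.62-fold and Ifit1 2.68-fold in lung, and both were quiet in cerebellum.

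Glial and metabolic genes filled in the rest. Of 17 astrocyte and Bergmann glia markers 5 had a difference above 0 and 2 below, against 9.85% and 11.5% of all genes. All 7 were called in lung and not in cerebellum. In cerebellum 1 of the 17 rose, against 2.84% of all genes, and none fell. S100b, a calcium-binding protein of glia, fell 2.83-fold in lung with an effect of 0.20 in cerebellum (adjusted p 0.54), and the water channel gene Aqp4 rose 2.09-fold in lung with an effect of -0.25 in cerebellum (adjusted p 0.34). Of 18 fibrillar collagen and collagen VI genes, 4 had a difference above 0 (7 without B46) and 2 below, 33.3% called against 21.3% of all genes. Col1a2 fell 2.73-fold in lung with an effect of -0.50 in cerebellum (adjusted p 0.051), while Lox, the enzyme that cross-links collagen, rose 2.12-fold in lung. Of 19 genes of the amino acid stress response 5 had a difference above 0 and 1, Mthfd2, below, 31.6% called. Of 16 cholesterol synthesis genes none had a called difference.

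The last 324 genes had a called difference and a called effect in neither organ. Ppm1f, a protein phosphatase, had effects of -0.28 in lung (adjusted p 0.055) and 0.37 in cerebellum (adjusted p 0.052), with a difference of -0.65 (adjusted p 0.0049). Only 1 of 2 probe sets of Ppm1f had a difference below 0. Dab2, an endocytic adaptor, had effects of 0.30 and -0.39 and a difference of 0.69 (adjusted p 0.0052). In all 324 the signs of the 2 effects were opposed, and neither organ's effect passed the test. This follows from how the class is defined, because effects of the same sign partly cancel in the difference.

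**Figure D5:**
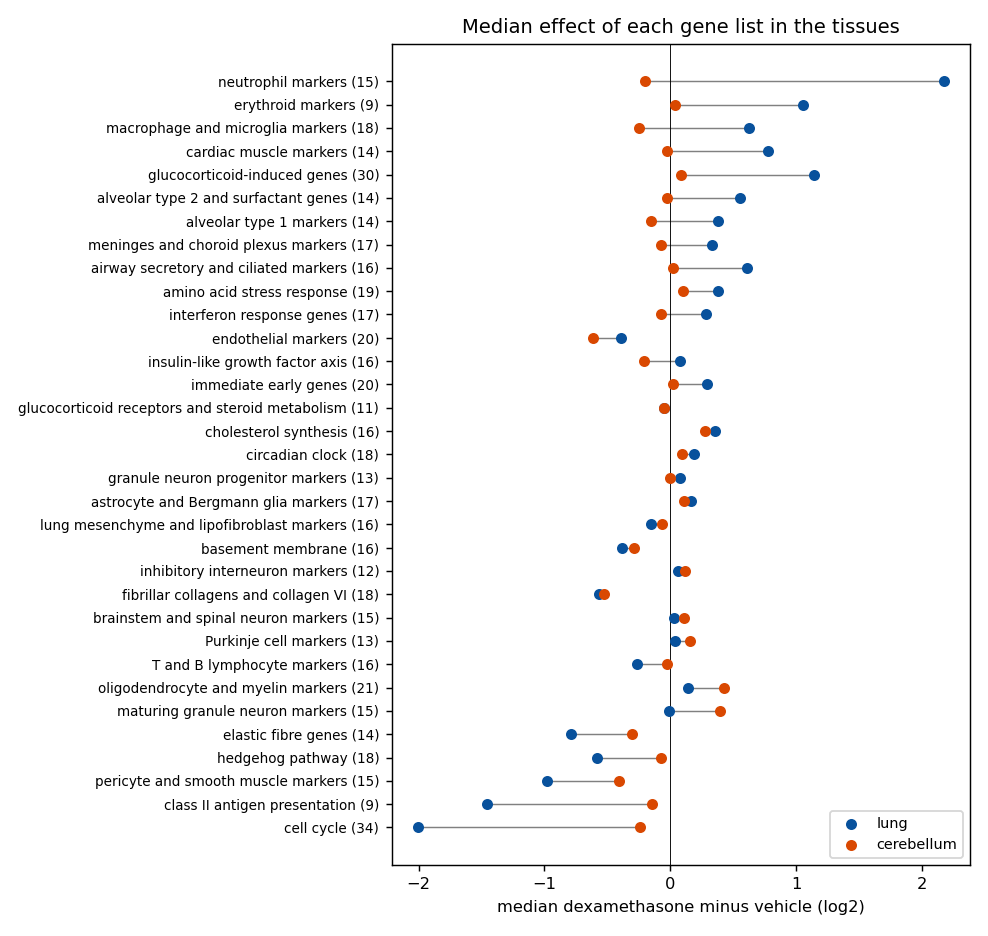
Median effect of dexamethasone over the measured members of each list (number in brackets), on the log2 scale, in lung (blue) and cerebellum (orange), ordered by the median difference between the organs. Neutrophil markers, at 2.18 and -0.20, and cell cycle genes, at -2.0 and -0.24, lie at the ends.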

How the data were processed

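Whole lung and whole cerebellum were measured on 16 Affymetrix mouse arrays, 4 for each organ and treatment. The deposited log2 values were made by the authors with RMA, per the submitters' processing notes, with no version or settings given. RMA fits all arrays together and compresses low values. The number of arrays sets how precise each value is. The table holds 45101 probe sets: 64 controls, 34945 with 1 gene symbol, 932 with several and 9160 with none. For each of 18193 genes the brightest probe set on average was used. The 4 group means were fitted with limma 3.58.1 in R 4.3.3, and the difference of the 2 treatment effects was tested, with Benjamini-Hochberg adjustment. A gene was quiet in an organ where both group means were below 5.93, the median of all values. The fits were tested on simulated data with 200 changed genes. A difference was called for 18.5% of them at 1.5-fold, 69% at 2-fold and 97.5% at 4-fold. Of all calls, 2.63%, 6.76% and 2.01% were false. Small differences are thus often missed.

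Genes were named by class rank (the smaller effect for opposite genes, otherwise the largest difference with arrays apart), by the smallest adjusted p in each list, and from a fixed list of glucocorticoid and hedgehog genes. The members and lists were chosen with earlier results of these data known. Alternatives covered probe sets, dim genes, normalization, the spread, array weights, covariates (Xist level for sex, the Gapdh control), thresholds and each array left out.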

Additional observations from a re-analysis of the deposited data

Results flagged for a closer look

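The effect of dexamethasone differed between lung and cerebellum by a test of the difference itself for 3879 genes, of which 153 were called in both organs in opposite directions. Among 10092 probe sets with no single gene symbol, which no comparison of the report uses, 584 had a called difference (5.79%).

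In groups of 4 arrays, the named genes were searched for an array standing apart from the other 3. Of 588 combinations of gene and group 38 had one (6.46%, where chance gives about 5%), and array B46 accounted for 14. Among dexamethasone lungs B46 stood apart at 11.88 for Cdkn1a, 9.89 for Dab2, 13.18 for Lpl, 10.19 for Marco and 10.60 for Reln. It also stood apart at 13.02 for Slc39a8, 11.67 for Tsc22d3 and 11.60 for Zbtb16, on the high side. On the low side it read 6.82 for Gli2, 6.85 for Hsd11b2, 8.82 for Ltbp2, 6.63 for Mycn, 8.10 for Scube2 and 5.25 for Tppp. Array B31 read 10.19 for Pglyrp1 and B28 read 11.06 for Tnnt2.

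Among vehicle lungs B19 stood apart at 13.51 for Col1a2, 6.99 for Klf15, 11.95 for Ptch1, 4.10 for Sox1, 8.31 for Tnnt2 and 11.85 for Txnip, and B14 at 6.79 for Zbtb16. Among dexamethasone cerebella B39 stood apart at 10.36 for Dusp1, 9.83 for Emp2, 5.46 for H2-Ab1, 8.36 for Klf15 and 8.19 for S100a8. Array B50 read 8.64 for Pdgfrb and 5.32 for Shisa3, and B52 read 8.10 for Slc39a8. Among vehicle cerebella B79 stood apart at 5.76 for Adssl1, 6.03 for Exo1, 10.20 for Mtf2 and 9.88 for Plin2. Array B80 read 4.30 for Mmp8 and 13.21 for Zic1, and B81 read 10.07 for Emp2.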

How the results depend on the processing

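No paired analysis was possible because no replicate number is shared between groups. Leaving out each array in turn gave 3329 to 3859 genes with a called difference, 87 to 200 in the opposite class, 13 to 62 in the same direction, 1945 to 2302 called in lung and expressed in cerebellum, 624 to 736 called in lung and quiet in cerebellum, 185 to 369 called in cerebellum and expressed in lung, 35 to 56 called in cerebellum and quiet in lung, and 285 to 339 called in neither. The Gapdh covariate, chosen after seeing the data, gave 2009 differences, 28 opposite, 6 same direction, 937 lung expressed, 319 lung quiet and 25 cerebellum quiet genes. Array weights gave 291 opposite, 81 same direction, 504 cerebellum expressed and 78 cerebellum quiet. At an adjusted p under 0.01 there were 2145 differences, 41 opposite, 3 same direction, 1358 lung expressed, 406 lung quiet, 119 cerebellum expressed, 23 cerebellum quiet and 195 neither. A minimum difference of 1 left 1355, with 5 same direction, 794 lung expressed, 372 lung quiet, 43 cerebellum expressed, 19 cerebellum quiet and 19 neither. The same direction class held 44 with a filter on dim genes in any group, 56 with it in both tissues (where both quiet classes are 0 by construction) and 46 with cyclic loess. Without B39 and B46, added after seeing the data, it held 48 and the opposite class 232. The mean of probe sets gave 188 cerebellum expressed genes, and a spread per tissue 601 neither. A quiet level of 5 gave 380 lung quiet and 24 cerebellum quiet genes, and of 7 gave 74 cerebellum quiet. Opposite genes that rose in lung were 39.2% in the report, 50.3% with quantile normalization and 56.6% with cyclic loess. Differences above 0 were 46.2%, 54.5% with cyclic loess and 39.4% with the filter in both tissues. Sftpc, not called, had a difference of -0.15 with the mean of probe sets, -0.019 with array weights, and -0.080 to 0.25 with each array left out in turn, below 0 without B50 (-0.028) or B79. The cause of these changes was not tested.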
